A study of Mus musculus with 6 samples.

Results

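Type I interferon-stimulated genes, the antiviral genes that cells switch on in answer to interferon-α and interferon-β, were followed in CD4 T cells with and without AMPKα1. The set holds 38 genes listed by symbol as antiviral genes driven by type I interferon, not by a threshold on their values, out of 23282 genes listed for each library. All 38 were found in the data, and all 38 passed the filter on low values, together with 11241 other genes. CD4 T cells came from spleen and lymph nodes of C57BL/6 mice, and RNA-seq was done on 3 WT and 3 AMPK KO samples. WT mice carried the floxed Prkaa1 gene (the gene of AMPKα1) on both alleles without CD4Cre (Prkaa1fl/flCD4Cre-neg). AMPK KO mice carried the same floxed alleles together with CD4Cre. This Cre is driven by the Cd4 promoter and acts in the thymus, so it also reaches CD8 T cells, while Prkaa2 is not targeted and cells outside the T lineage keep Prkaa1. The study's methods describe the mice as females of 6 to 8 weeks. Cells of both groups rested for 1 h before both antibodies, against CD3 and CD28, were added at 2 µg/mL to activate them through the T cell receptor. The stimulation lasted 24 h in the sample labels and 6 h in the methods, and the data do not settle which applies. No library of unstimulated or interferon-treated cells was used here, so every value compares AMPK KO with WT after T cell stimulation.

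Each WT library held 9574998 to 10168207 reads, and each AMPK KO library 10515288 to 11185086. The ribosomal RNA gene Rn45s took 20.7% to 24.9% of the reads in WT but 8.48% to 10.8% in AMPK KO. Values are the deposited log2 of TMM-normalized CPM (reads relative to library size) plus 1, called log2 values here, and a log2 fold change is the mean of AMPK KO minus the mean of WT on that scale, which understates changes of low genes. The targeted gene Prkaa1 had log2 values of 4.64, 5.24 and 4.86 in WT and 4.08, 4.72 and 4.67 in AMPK KO. These ranges overlapped, and the libraries read the 3′ ends of transcripts, so Prkaa1 does not check the labels. Xist, expressed from the inactive X chromosome of females, was at 0.93 to 2.16 in WT and 7.55 to 7.92 in AMPK KO. Y-linked Ddx3y was at 8.44 to 8.53 in WT and 6.93 to 7.28 in AMPK KO, which goes against the description of the mice as females. Transcripts that mark sex thus differed between the groups, and sex and genotype cannot be told apart in any result given here.

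Type I interferons bind the receptor IFNAR1-IFNAR2, which activates the kinases JAK1 and TYK2. These phosphorylate STAT proteins, and the complex ISGF3, which contains STAT2 and IRF9, binds the interferon-stimulated response element (ISRE) near the start of target genes. The products sense viral nucleic acids, block steps of viral replication, and amplify or restrain the response. In T cells the same pathway is known to shape survival, expansion and differentiation, and many of these genes also respond to interferon-γ or are expressed at a base level without interferon.

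The core of the ISRE was looked for as GAAA, any 2 bases and GAAA again, on both strands, from 250 bases before to 50 bases after the start of each gene in RefSeq promoters (GRCm38.p6, the build that the deposited data name as mm10). Of the 38 members, 27 had a promoter there, and 12 of these 27 (44.4%) held the motif, against 1079 of 27025 promoters overall (3.99%). They were the promoters of Bst2, Ddx58, Ifih1, Ifit1, Ifit3, Ifitm3, Isg15, Oas1a, Oas3, Rsad2, Stat2 and Trim30a. The shorter motif TTCNNNGAA, of the type bound by STAT dimers, was in 7 of the 27 (25.9%) and in 9.55% of all. Where these 2 motifs overlap, as in Bst2 and Ifitm3, each was counted. The 4 stretches shown are the promoters of Isg15, the member that rose, of Trim30a, a member that fell, and of Ifit1 and Ifit3, classical targets that did not pass the test. Each is 60 bases long, reads 5′ to 3′ in the direction of its gene, and has the motif in capitals, written as its reverse complement where it lies on the other strand.
Isg15, chr4:156200856-156200915, minus strand: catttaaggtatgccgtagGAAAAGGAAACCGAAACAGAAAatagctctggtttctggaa
Trim30a, chr7:104465195-104465254, minus strand: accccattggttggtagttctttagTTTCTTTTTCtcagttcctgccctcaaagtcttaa
Ifit1, chr19:34640769-34640828, plus strand: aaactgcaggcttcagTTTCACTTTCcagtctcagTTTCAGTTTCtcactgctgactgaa
Ifit3, chr19:34583365-34583424, plus strand: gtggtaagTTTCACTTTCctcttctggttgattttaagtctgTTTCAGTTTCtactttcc
The Isg15 stretch held 3 overlapping copies between bases -78 and -57 from the start. Ifit1 and Ifit3 each held 2 separate copies, and the Trim30a stretch held 1. The promoters of Trim25, Irf9 and Irf7 held no copy of these letters in the window. A match of letters is a description of the promoter and does not show that a factor binds there.

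Most type I interferon-stimulated genes had lower values in AMPK KO than in WT, and a single one passed the test in the other direction. The mean was lower for 30 of the 38 and higher for 8, and the median log2 fold change was below 0 (-0.31, against 0.02 over all 11279 genes tested). In limma with Benjamini-Hochberg adjustment over all genes and a threshold of 0.05, 5 members fell (Trim25, Trim30a, Rtp4, Ddx58 and Parp9) and 1 rose (Isg15). Those 6 of 38 are 15.8% of the members, beside 5.65% of all genes called in either direction. The 5 that fell are 13.2%, beside 3.1% of all genes called lower, and the 1 that rose stands beside 2.54% of all genes called higher. The AMPK KO samples lay entirely below the WT samples for 13 members (all genes, 14%) and entirely above for 2, Isg15 and Isg20 (all genes, 11.6%); 23 members overlapped. At an unadjusted p under 0.05, 13 members were lower (all genes, 10.7%) and 2 higher (all genes, 10.6%).

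The called members were all among the 21 with a mean log2 value of at least 4. Of these 21, 17 were lower on average and 5 were called lower (23.8%), where 4.92% of the 6143 genes at this level were called lower. Among the 17 members below that level 0 were called in limma, where 2.67% of all genes at this level were called, so a count of 0 is near the background. At an unadjusted p under 0.05, 4 of the 17 were lower, beside 5.49% of all genes at this level. These were Mx1, Mx2, Oasl1 and Xaf1, for which the fits rest on 2 to 93 reads a library.

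**Figure D1:**
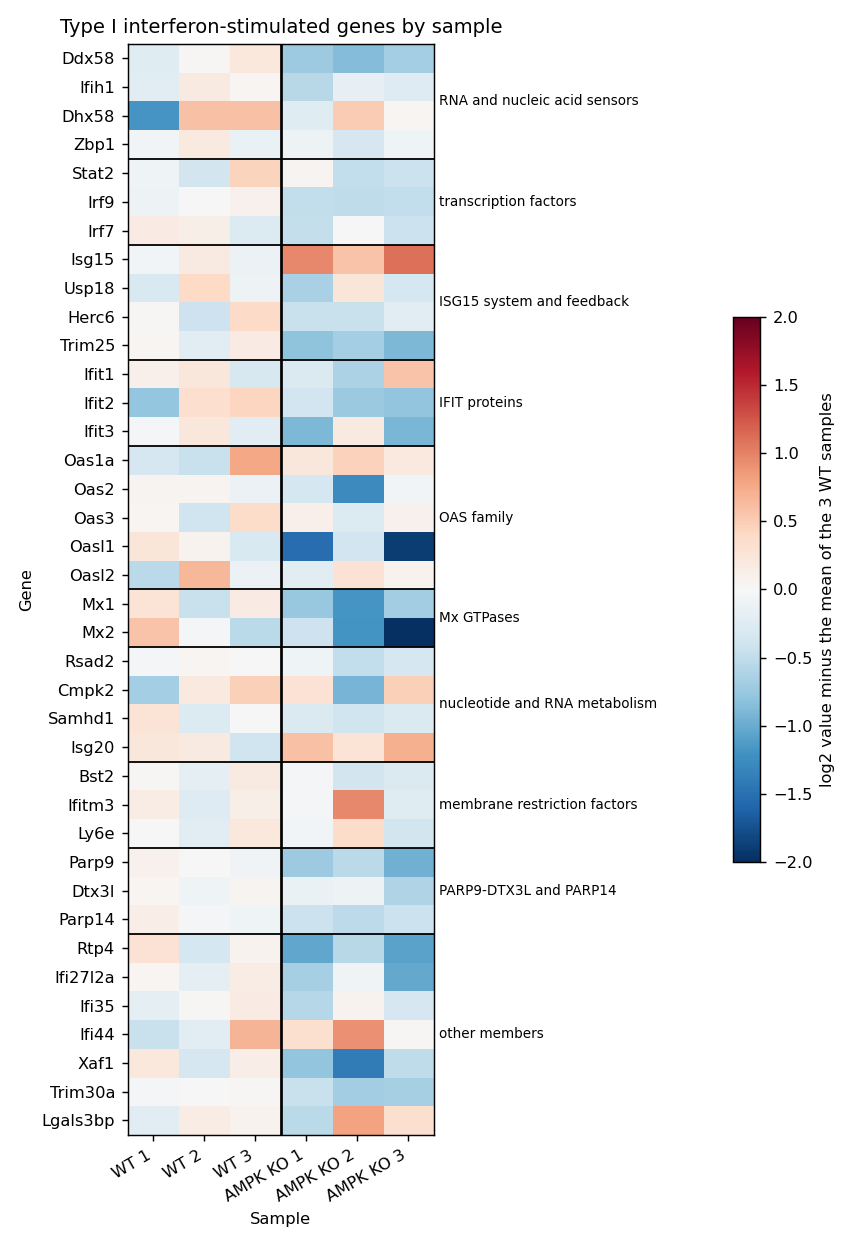
Each row is 1 of the 38 genes, grouped by role, and each column 1 sample; colour is the log2 value minus the mean of the 3 WT samples, with blue lower and red higher. The 3 AMPK KO columns are mostly blue. Isg15, Isg20, Oas1a and Ifi44 lie above the WT mean in all 3, Ifi44 only just in AMPK KO 3. A few genes such as Ifitm3 and Lgals3bp are reddest in AMPK KO 2.

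Sample by sample, the median deviation of the members from their own mean over the 6 samples was 0.14, 0.19 and 0.30 in WT and -0.22, -0.20 and -0.20 in AMPK KO, where the median over all genes tested was 0.01 in every sample. So the median shift was of nearly the same size in all 3 AMPK KO samples, and WT 3 stood highest. In AMPK KO 2, 22 members were below and 16 above their own mean. These counts were 27 and 11 in AMPK KO 1, and 28 and 10 in AMPK KO 3. The lowest value of a member was in an AMPK KO sample for 30 members, with AMPK KO 2 alone lowest for 15. Together the members took 3200, 2912 and 3310 CPM of the reads outside Rn45s in WT and 2430, 2634 and 2208 in AMPK KO. This sum rests much on Samhd1, Ly6e and Ifi27l2a, none of them called. In WT 1 they held 4235, 3995 and 3773 of the 24351 reads of the members. With scaling outside Rn45s the median log2 fold change over all genes was -0.05. The spread between replicates was like that of other genes, with a median SD of 0.18 in WT and 0.22 in AMPK KO for members of mean at least 4, beside 0.20 and 0.23 for all genes at that level.

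The direction of the 6 called members was the same in every alternative run, but the calls were not. In limma, 0 members were called without WT 1, WT 3 or AMPK KO 1, where the share of all genes called fell as well, to 1.12%, 1.18% and 1.54%. At an unadjusted p under 0.05 there were 12, 10 and 13 members in these fits, beside 15.3%, 15.8% and 15.4% of all genes. Without AMPK KO 3 there were 2 calls (Ddx58 and Trim25), without WT 2 there were 4 (Isg15, Trim25, Rtp4 and Trim30a), and without AMPK KO 2 there were 10, which added Irf9, Oasl1, Isg20 and Ifi27l2a. The share of all genes called was 4.07% without AMPK KO 3, 6.46% without WT 2 and 11% without AMPK KO 2. The number of members with a lower mean stayed between 28 and 32 in these 6 fits. With voom on the recovered reads the same 6 members were called, beside 4.78% of all genes. No filter left 2 calls (1.93% of all genes). The replicate block gave 0 (0.904%), with 14 members at an unadjusted p under 0.05 (all genes, 16%). A model that also sets WT 1, WT 3 and AMPK KO 2 apart from the other 3 libraries gave 10 (12.7%). Over 15 alternatives in all, Trim25 was called in 11, Trim30a in 10, Ddx58, Isg15 and Rtp4 in 9 each, and Parp9 in 8.

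Markers of other cells moved with the groups, and their part in the results for the interferon-stimulated genes was not tested. The summed level of 15 macrophage markers was 516.1 to 593.6 normalized CPM in WT and 859.4 to 1763 in AMPK KO, highest in AMPK KO 2. Of the 12 tested, 12 had a higher mean and 6 were called (all genes, 2.54%). The sum of 13 T cell markers was 3336 to 3529 in WT and 2583 to 3082 in AMPK KO. Of these, 11 were lower on average and 3 fell (Cd3e, Cd3g and Cd28), beside 3.1% of all genes. The median log2 fold change of the 13 T cell markers equalled that of the interferon-stimulated genes (-0.31). Plasma cell markers were at 212.3 to 276.8 in WT and 563.1 to 568.3 in AMPK KO, of which Jchain, the joining chain of antibodies, made up 56.08 to 63.4 and 326.9 to 391.6. Without Jchain the plasma cell sums overlapped, at 154.8 to 213.4 and 171.4 to 237.1, and Irf4 had the highest level among the rest. Irf4 was lower on average (log2 fold change -0.35), while 6 of the 7 plasma cell markers had a higher mean. For Mzb1 (0.75) and Prdm1 (0.54) every AMPK KO sample was above every WT sample (all genes, 11.6%). The sums for conventional dendritic cell markers were 41.56 to 46.36 and 86.57 to 96.94. NK cell markers were at 113.7 to 142.9 and 158.2 to 192.3, and CD8 T cell markers at 230.7 to 305.2 and 321.3 to 376.1. Neutrophil markers were at 793.2 to 907.1 and 521.4 to 763.2, with the highest levels for S100a8 and S100a9. Of the 9 neutrophil markers tested, 6 were lower on average and 3 higher, and 2 fell (all genes, 3.1%). The ranges overlapped for B cell markers (324 to 346.4 and 317.1 to 389.2) and for plasmacytoid dendritic cells (310.2 to 356.9 and 290.9 to 334.4, leaving out the member Bst2), which are known as strong producers of type I interferon. No marker used was at 0 in all 6 libraries. In these bulk samples, fewer cells of a type and less RNA per cell cannot be told apart.

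**Figure D2:**
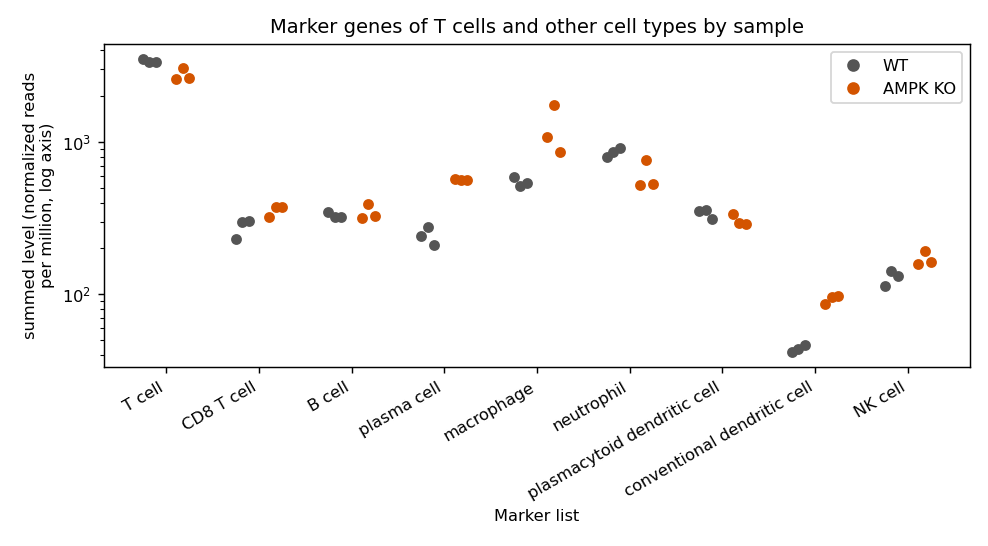
Each point is the summed level of a list of marker genes in 1 sample, in normalized CPM on a log axis, with WT in grey and AMPK KO in orange. The sums for macrophage, plasma cell (through Jchain) and conventional dendritic cell markers are higher in all 3 AMPK KO samples. Those for T cell and neutrophil markers are lower in all 3.

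Among the sensors of viral nucleic acids, Ddx58 fell and the other 3 did not pass the test. Ddx58 (chr4:40203773-40239828) encodes RIG-I, which detects viral RNA in the cytoplasm. Its log2 value was 5.63, 5.90 and 6.08 in WT and 5.14, 5.01 and 5.19 in AMPK KO. All AMPK KO samples lay below all WT samples, and the level fell by 0.75 on the log2 scale (SE 0.19, limma adjusted p = 0.0324), to 59.3% of WT. The recovered reads were 447 to 588 per library in WT and 336 to 422 in AMPK KO. Ifih1, which encodes the related RNA sensor MDA5, had a log2 fold change of -0.33 (95% interval -0.92 to 0.26). For Zbp1, a sensor of Z-form nucleic acids, it was -0.17 (-0.66 to 0.31). Dhx58, which encodes LGP2, a regulator of both RNA sensors, was at 0.10, with an SD of 1.03 in WT that came from a single low library, WT 1 (15 reads, against 48 to 80 in the other 5 libraries).

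The 3 transcription factors among the members were lower on average, and none passed the adjusted threshold in limma. Irf9 (chr14:55603571-55610030), the DNA-binding partner in ISGF3, came closest. Its log2 value was 7.18, 7.29 and 7.37 in WT and 6.79, 6.77 and 6.79 in AMPK KO. The AMPK KO samples were close to each other and all below WT, with a log2 fold change of -0.50 (SE 0.14, limma adjusted p = 0.0539). Irf9 was called in 4 of the 15 alternatives: with a filter of at least 3 (adjusted p = 0.0449), with scaling outside Rn45s (0.033), with WT 1, WT 3 and AMPK KO 2 set apart in the model (0.00871) and without AMPK KO 2 (0.0304). Irf9 shares exon sequence on the same strand with Rnf31, so some of its reads may belong to that gene. For Stat2 (chr10:128270559-128292849), the ISGF3 subunit specific to type I and III interferons, the values were 4.53, 4.26 and 5.07 in WT and 4.67, 4.13 and 4.19 in AMPK KO. The groups overlapped, since AMPK KO 1 was above WT 1 and WT 2, and the log2 fold change was -0.29 (SE 0.27, limma adjusted p = 0.573). Irf7 (chr7:141262706-141266481), the factor that amplifies interferon-α production, was at 6.38, 6.32 and 5.93 in WT and 5.74, 6.20 and 5.78 in AMPK KO. AMPK KO 2 overlapped with WT here, and the log2 fold change was -0.31 (SE 0.19, limma adjusted p = 0.378). The exons of Irf7 overlap those of Phrf1 on the opposite strand, and whether the counting used strand is not given in the sources used here.

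**Figure D3:**
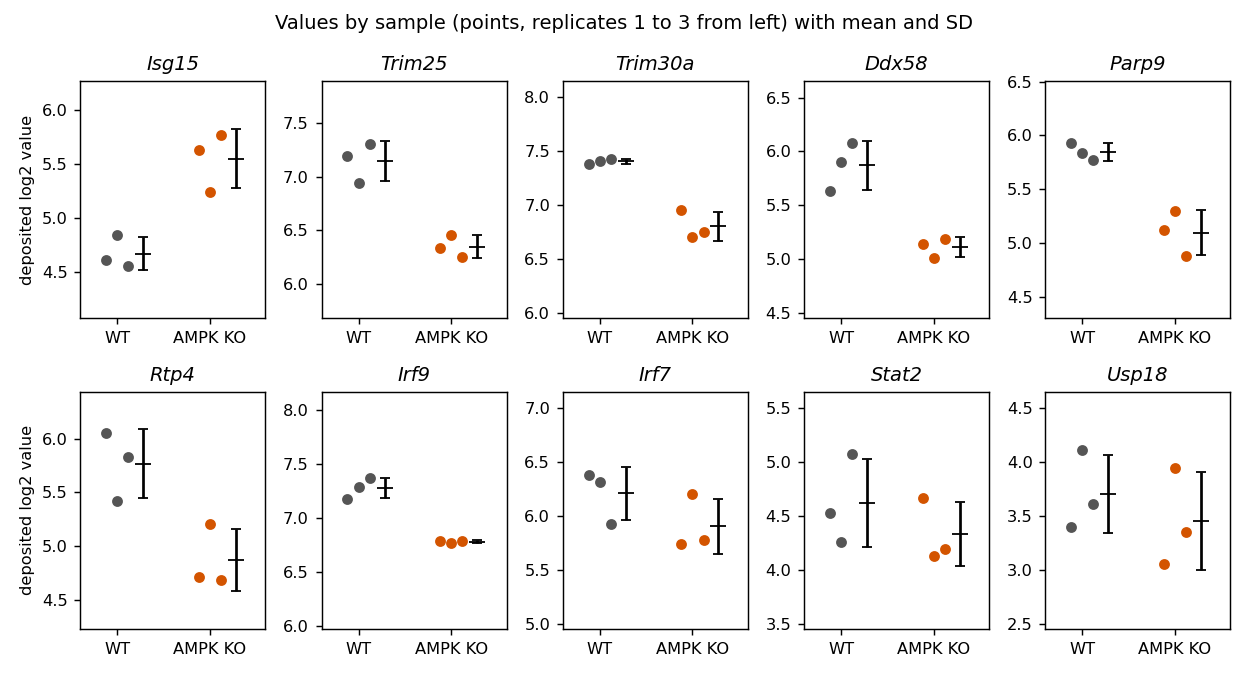
Each panel shows 1 gene on the deposited log2 scale, with the same span on each axis, with WT samples in grey, AMPK KO samples in orange, and the mean with SD (n = 3) beside them. Isg15 is higher in all 3 AMPK KO samples, Trim25, Trim30a, Ddx58, Parp9, Rtp4 and Irf9 are lower in all 3, and the groups overlap for Irf7, Stat2 and Usp18.

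The ISG15 system moved in opposite directions: the modifier itself rose and 1 of its ligases fell. ISG15 is a ubiquitin-like protein that is attached to other proteins, and that can also be secreted. Isg15 (chr4:156199424-156200818) was at 4.61, 4.84 and 4.55 in WT and 5.63, 5.24 and 5.77 in AMPK KO. Every AMPK KO sample exceeded every WT sample, and the level rose by 0.88 on the log2 scale (SE 0.21, limma adjusted p = 0.0275), or 1.84-fold. In reads this was 216, 277 and 198 against 575, 395 and 637.
Trim25 (chr11:88999376-89020293) encodes a ubiquitin and ISG15 ligase that also ubiquitinates RIG-I. It was at 7.19, 6.94 and 7.30 in WT and 6.34, 6.46 and 6.25 in AMPK KO. The gap between the groups was wider than the range within either, and the level fell by 0.79 (SE 0.16, limma adjusted p = 0.00971), to 57.8% of WT, which was the smallest p among the members.
Herc6, the main ISG15 ligase of the mouse, was at 4.48, 4.04 and 4.83 in WT and 4.01, 4.01 and 4.22 in AMPK KO. WT 2 overlapped with AMPK KO, and the log2 fold change was -0.37 (SE 0.27, limma adjusted p = 0.449). Usp18 (chr6:121245906-121270917), which removes ISG15 from proteins and restrains signalling at IFNAR2, was at 3.40, 4.11 and 3.61 in WT and 3.06, 3.95 and 3.35 in AMPK KO. The groups overlapped, with a log2 fold change of -0.25 (95% interval -0.95 to 0.45, limma adjusted p = 0.707).

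PARP9, its partner the ubiquitin ligase DTX3L, and PARP14 are encoded next to each other on chromosome 16, and are known to act in interferon responses. For all 3 genes every AMPK KO sample was below every WT sample (all genes, 14%), and 1 of the 3 fell by the adjusted test (all genes, 3.1%). Parp9 (chr16:35938470-35972605) was at 5.93, 5.84 and 5.77 in WT and 5.12, 5.30 and 4.88 in AMPK KO, a fall by 0.74 (SE 0.19, limma adjusted p = 0.0328), to 59.7% of WT. Parp14 was at 6.89, 6.72 and 6.68 in WT and 6.33, 6.24 and 6.33 in AMPK KO. Its log2 fold change was -0.47 (SE 0.15, limma adjusted p = 0.0864). Dtx3l was at 5.85, 5.73 and 5.87 in WT and 5.69, 5.71 and 5.21 in AMPK KO, where AMPK KO 3 stood apart below the other 2, with a log2 fold change of -0.28 (limma adjusted p = 0.434). Parp9 and Dtx3l overlap at their exons on opposite strands, so their reads may be mixed.

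Rtp4 and Trim30a were the other members that fell. RTP4 is a receptor transporter protein that interferon induces strongly. Rtp4 (chr16:23520291-23614222) was at 6.05, 5.42 and 5.83 in WT and 4.72, 5.21 and 4.69 in AMPK KO. The highest AMPK KO sample was just below the lowest WT sample, and the level fell by 0.90 (SE 0.22, limma adjusted p = 0.0313), to 53.8% of WT. Rtp4 shares exon sequence on the same strand with Gm45338, as Herc6 does with Gm45193 and Parp14 with Gm49730, so some of their reads may belong to those genes. Exons of Oasl1, Usp18, Dhx58 and Ifi35 overlap a noncoding gene on the opposite strand.
Trim30a (chr7:104409025-104465193) encodes a TRIM protein of the mouse that dampens Toll-like receptor signalling. It was at 7.38, 7.41 and 7.43 in WT and 6.96, 6.71 and 6.75 in AMPK KO. The WT samples were close together and all above AMPK KO, and the level fell by 0.60 (SE 0.14, limma adjusted p = 0.0266), to 66% of WT.

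Of the 4 genes whose products act on RNA or the nucleotide pool, 0 passed the adjusted test in limma. At an unadjusted p under 0.05 Isg20 was higher (all genes, 10.6%) and Samhd1 lower (all genes, 10.7%). Isg20 (chr7:78913424-78920396), an exonuclease of single-stranded RNA, was at 6.03, 5.98 and 5.41 in WT and 6.39, 6.08 and 6.51 in AMPK KO. All AMPK KO samples were above WT, though AMPK KO 2 only just, and the log2 fold change of 0.52 (SE 0.20) had a limma adjusted p of 0.144. Samhd1, a dNTP hydrolase, was at 8.85, 8.31 and 8.59 in WT and 8.29, 8.19 and 8.30 in AMPK KO. The groups met without overlap, and the log2 fold change was -0.32 (SE 0.15, limma adjusted p = 0.234). Rsad2, which encodes viperin, the enzyme that makes an antiviral nucleotide, was at 5.44, 5.52 and 5.48 in WT and 5.39, 4.99 and 5.14 in AMPK KO. AMPK KO 1 came close to WT, with a log2 fold change of -0.31 (SE 0.19, limma adjusted p = 0.378). Cmpk2, a nucleotide kinase whose gene lies 12.8 kb from Rsad2, rested on 9 to 46 reads and had a log2 fold change of -0.05 (95% interval -1.09 to 0.99).

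The classical antiviral effectors rested on few reads (2 to 224 a library), and none of the 10 genes of the IFIT, OAS and Mx families passed the adjusted threshold in limma. Of these 10, Oasl1, Mx1 and Mx2 were lower at an unadjusted p under 0.05. The shares were 10.7% of all genes and 5.49% of all genes with a mean under 4. IFIT proteins bind viral RNA and block its translation. The log2 fold change was -0.12 for Ifit1, -0.64 for Ifit2 and -0.55 for Ifit3, with the groups overlapping in each. Ifit1 was at 3.57, 3.69 and 3.14 in WT and 3.17, 2.84 and 4.03 in AMPK KO, so its highest value was in AMPK KO 3 while its neighbour Ifit3 was lowest there. Of the last 500 bases of Ifit3, 14.9% of the 50-base stretches also occur in Ifit3b.
OAS proteins make the messenger 2-5A, which activates RNase L. The log2 fold change ranged from -1.27 for Oasl1 through -0.56 for Oas2, -0.02 for Oas3 and 0.04 for Oasl2 to 0.29 for Oas1a. Oasl1, known as a translational repressor of Irf7, was at 3.47, 3.29 and 2.92 in WT and 1.71, 2.84 and 1.33 in AMPK KO. Its groups did not overlap (limma adjusted p = 0.0952), on 18 to 93 reads a library. Oas1a shares 56.1% of the 50-base stretches at its end with Oas1g and is uncertain for that reason.
The Mx GTPases block viral ribonucleoproteins and are defective in many laboratory strains. Mx1 was at 3.44, 2.72 and 3.33 in WT and 2.41, 1.99 and 2.47 in AMPK KO, with no overlap (log2 fold change -0.87, SE 0.36, limma adjusted p = 0.178). Mx2 had 72, 48 and 27 reads in WT and 41, 17 and 2 in AMPK KO, with a log2 fold change of -1.31 (95% interval -2.40 to -0.23, limma adjusted p = 0.149).

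**Figure D4:**
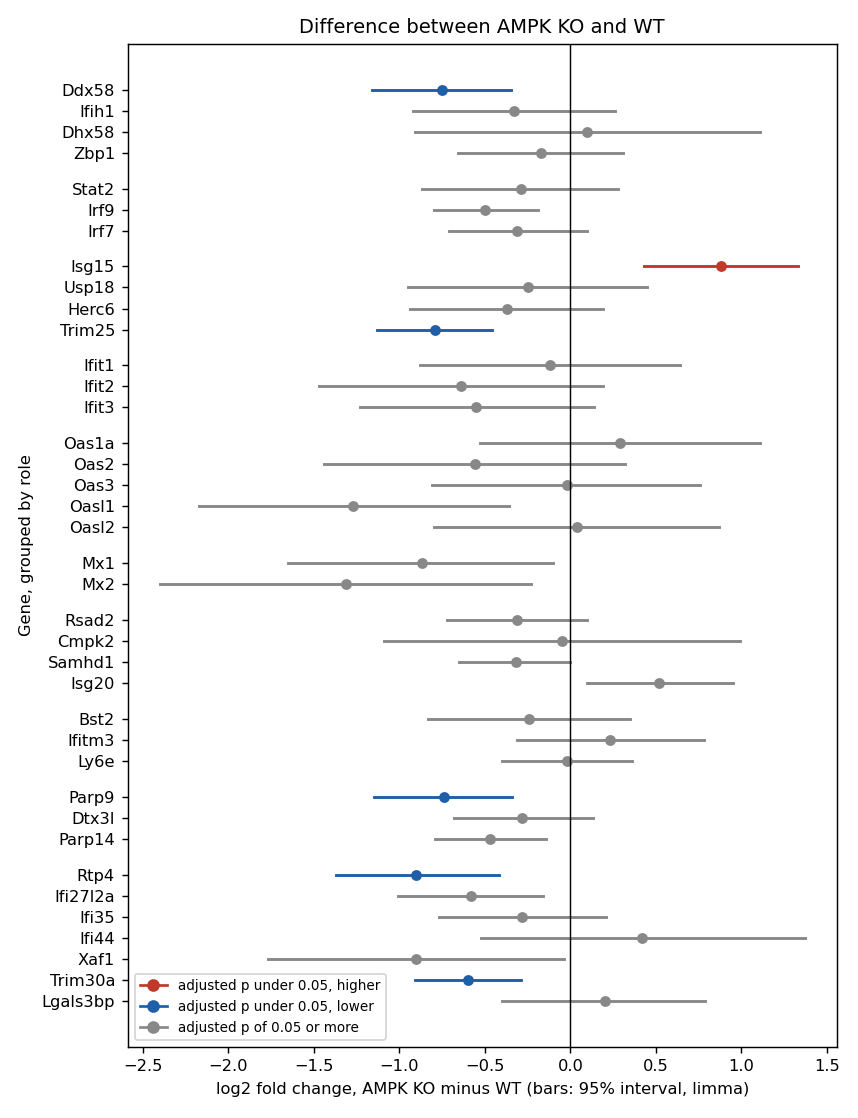
Points are log2 fold changes of AMPK KO against WT with 95% intervals from limma, for the 38 genes grouped by role; coloured genes have an adjusted p under 0.05. The points run from -1.31 for Mx2 to 0.88 for Isg15, with 30 of 38 below 0.

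Membrane restriction factors had no called member, and 0 of the 3 had an unadjusted p under 0.05 in limma (all genes, 21.3%). Ifitm3, which hinders fusion of viruses with endosomes, was at 6.25, 5.85 and 6.22 in WT and 6.07, 7.07 and 5.87 in AMPK KO. AMPK KO 2 stood alone above the other 5 samples, and without it the log2 fold change of Ifitm3 went from 0.23 to -0.13. Ly6e, a lipid-anchored surface protein, was also highest in AMPK KO 2, at 9.13 against 8.39 to 8.97 elsewhere (log2 fold change -0.02). Lgals3bp, a secreted glycoprotein, reached 6.03 there against 4.69 to 5.54 elsewhere, and its log2 fold change went from 0.20 to -0.11 without that sample. AMPK KO 2 was likewise the library with the highest sums of macrophage, B cell and NK cell markers, and a link to these genes was not tested. Bst2, tetherin, which holds budding virions at the membrane, had a log2 fold change of -0.24 (95% interval -0.83 to 0.35).

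Of the remaining members, Ifi27l2a (chr12:103442167-103443680), an interferon-inducible membrane protein, was at 8.68, 8.44 and 8.79 in WT and 7.97, 8.56 and 7.62 in AMPK KO. AMPK KO 2 lay within the WT range and the other 2 below it, with a log2 fold change of -0.58 (SE 0.20, limma adjusted p = 0.103). Without AMPK KO 2 the log2 fold change of Ifi27l2a was -0.84 (limma adjusted p = 0.00108). Xaf1, a pro-apoptotic partner of XIAP, had no overlap and a log2 fold change of -0.90 (SE 0.41, limma adjusted p = 0.215), on 13 to 53 reads a library. The log2 fold change was -0.28 for Ifi35 (95% interval -0.77 to 0.21) and 0.42 for Ifi44 (-0.52 to 1.37).

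The pathway upstream of these genes was read from lists of ligands, receptors, kinases and sensors. Of the 18 type I interferon genes in the data, Ifnb1 and the Ifna genes included, 17 had 0 reads in all 6 libraries, and Ifnz had 0, 0 and 1 reads in WT and 1, 2 and 1 in AMPK KO. Apart from these few reads of Ifnz, interferon transcripts were not detected at this depth, and none was tested. The receptor chains did not pass the test, with log2 fold changes of -0.06 for Ifnar1 (95% interval -0.43 to 0.32) and -0.06 for Ifnar2 (-0.42 to 0.30). Among 14 receptor and JAK-STAT genes, 1 fell and 1 rose, which with so few genes is close to the shares of all genes called (3.1% lower and 2.54% higher). Jak1, the kinase bound to IFNAR2, was at 11.03, 10.76 and 11.01 in WT and 10.25, 10.57 and 10.23 in AMPK KO. The groups did not overlap, and Jak1 fell by 0.59 (SE 0.15, limma adjusted p = 0.0383), to 66.7% of WT.
Socs1, a feedback inhibitor of JAK kinases, was at 3.19, 4.97 and 3.19 in WT and 6.22, 4.78 and 6.74 in AMPK KO. It rose by 2.13 (SE 0.48, limma adjusted p = 0.0196), although AMPK KO 2 lay below WT 2. The kinase Tyk2 had a log2 fold change of 0.26 (95% interval -0.23 to 0.75).
Of 20 tested genes of nucleic acid sensing and interferon induction, 2 fell (all genes, 3.1%), the members Ddx58 and Trim25, and 1 rose (all genes, 2.54%). That was Trex1, a DNA exonuclease that limits DNA sensing, at 0.84 (SE 0.23, limma adjusted p = 0.0477). Jak1 was called in 9, Socs1 in 8 and Trex1 in 4 of the 15 alternatives, and none of the 3 was called without WT 1, without WT 3, without AMPK KO 1, with no filter or with the replicate block. Irf3, the factor that first induces interferon-β, had a log2 fold change of -0.46 (SE 0.20, limma adjusted p = 0.195).

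Interferon-stimulated genes outside the set of 38 were compared as a background of the same kind. Of 54 tested, 32 were lower on average (59.3%, beside 48.8% of all genes), and the median was -0.17 on the log2 scale. By the adjusted test 5 fell (all genes, 3.1%) and 2 rose (all genes, 2.54%). At an unadjusted p under 0.05 in limma, 11 were lower (all genes, 10.7%) and 7 higher (all genes, 10.6%). The genes that fell were Slfn2 (-1.27), Ddx60 (-1.20), Ms4a6b (-1.04), Slfn1 (-1.02) and Pyhin1 (-0.69), with limma adjusted p from 0.000117 to 0.0347. Slfn1 and Slfn2 are Schlafen genes known for a role in T cell quiescence, DDX60 is a helicase tied to RIG-I, and PYHIN1 is of the family of DNA-binding IFI16-like proteins. The 2 that rose were Ly6c2 (0.92) and Ms4a4c (0.86), surface proteins of T cells and myeloid cells. Slfn2 and Ms4a6b were called in all 15 alternatives, Ly6c2 in 13, Slfn1 in 12, Pyhin1 in 9, Ddx60 in 8 and Ms4a4c in 7. Eif2ak2, the kinase PKR, had a log2 fold change of -0.26 (95% interval -1.03 to 0.51), and the RNA-editing enzyme Adar one of -0.12 (-0.53 to 0.28).

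The list of the interferon-γ pathway, which signals through its own receptor, gave other values. Of its 21 tested genes, 14 were higher on average, 4 rose (all genes, 2.54%) and 0 fell (all genes, 3.1%) by the adjusted test in limma, and the median log2 fold change was 0.17. At an unadjusted p under 0.05, 5 were higher (all genes, 10.6%) and 2 lower (all genes, 10.7%). Ifng itself was at 2.12, 4.10 and 3.45 in WT and 4.91, 5.17 and 4.71 in AMPK KO, and rose by 1.70 (SE 0.40, limma adjusted p = 0.0231). Irf1, a primary target of interferon-γ that is also induced by T cell receptor signals, was at 9.07, 9.16 and 9.06 in WT and 9.77, 10.04 and 9.91 in AMPK KO. It rose by 0.81 (SE 0.13, limma adjusted p = 0.00336). Cxcl10, the chemokine for CXCR3, rose by 1.98 (SE 0.37, limma adjusted p = 0.00744). The fourth gene was Socs1, which was also counted among the receptor and JAK-STAT genes. Irf1 was called in 14 of the 15 alternatives, Cxcl10 in 12 and Ifng in 10, and neither Cxcl10 nor Ifng was called without WT 1 or without WT 3, nor Ifng without AMPK KO 1. The difference between the type I and the interferon-γ lists was not tested, and the same 6 samples stand behind both.

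**Figure D5:**
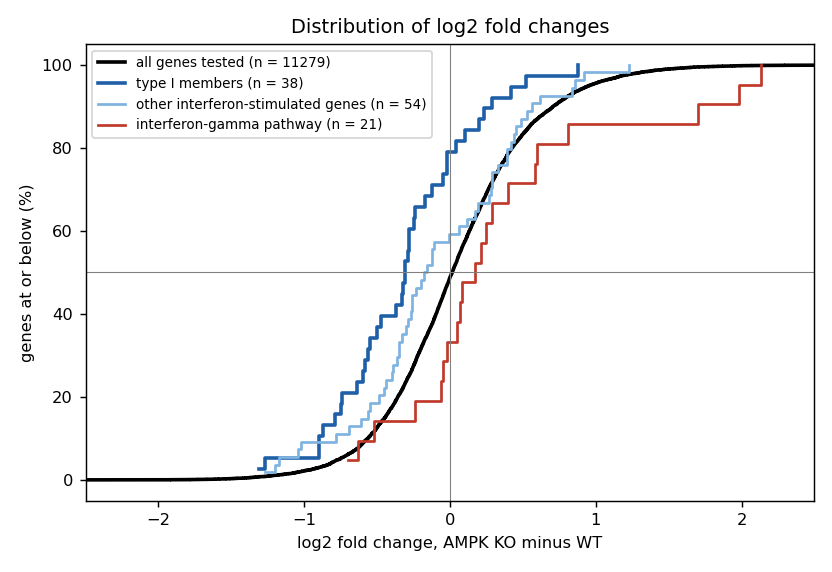
Cumulative share of genes (in percent) by log2 fold change of AMPK KO against WT for all genes tested, the 38 type I members, 54 other interferon-stimulated genes and 21 interferon-γ pathway genes. The curve of the 38 members lies to the left of that of all genes, with medians of -0.31 and 0.02, and the interferon-γ curve lies to the right at a median of 0.17.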

How the data were processed

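The members and all lists were chosen with earlier results of these data known. A Lexogen QuantSeq kit, for 3′ ends, was used on 500 ng of total RNA per sample. The submitters' processing notes name Bowtie2, bedtools and mm10, with no versions. The authors deposited log2 values per gene symbol, log2 of TMM- and CPM-normalized reads plus 1. Up to 100 reads, 100% of the entries came out whole (tolerance 0.1 read), which gave the reads and depths used here. Of 23282 lines, 79 hold 35 repeated symbols, none a member. No 2 libraries held the same values.

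The deposited log2 values were tested with lmFit and eBayes (trend) of limma 3.58.1 in R 4.3.3, genotype only, for 11279 genes with a mean of at least 1. Tests were two-sided and adjusted by Benjamini-Hochberg, with a threshold of 0.05; the script was tested on simulated data. An exact permutation test of 3 against 3 cannot go below p = 0.1. The labels do not say whether samples came from separate mice, and the study's figure legends give 3 biologically independent samples. The p-values measure the spread between these samples.

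Values in every sample are given for called members, Stat2, Irf9, Irf7, Usp18, and the 6 further members of largest absolute log2 fold change with a mean of at least 4; others shown were chosen after their values were seen. Of the pathway lists, every called gene is given, and so are the genes fixed by name, except 1 that is not reported here. Marker lists are given by their sums, and single markers were named after their values were seen. Gene positions are those of GENCODE M21 (GRCm38). Uniqueness was counted over 50-base stretches of the last 500 bases. Tables were handled with pandas 2.3.3, numpy 2.4.6 and scipy 1.17.1 in Python 3.11.15, and drawn with matplotlib 3.10.9.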

Additional observations from a re-analysis of the deposited data

How the results depend on the processing

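Alternatives were quantile normalization, no filter, a filter of at least 3, a pseudocount of 0.25, a replicate block, robust spread, voom on recovered reads, scaling to reads outside Rn45s, a term for the division of libraries known from earlier results (WT 1, WT 3 and AMPK KO 2 against the rest), and leaving out each library. Without a filter, 2 members were called (2 lower, 0 higher, Trim25 and Trim30a; 13 at an unadjusted p under 0.05, beside 16.6% of all genes) and 308 of all genes. With a filter of at least 3, 26 members were tested, 4 had a higher mean and 7 were called, Irf9 added, with 7.79% of all genes called. Scaling outside Rn45s gave a median of -0.38 over the members, 7 called with Irf9 added, and 231 genes called higher and 487 lower, where the deposited scaling gave 287 and 350. With the division term 10 members were called (8 lower, 2 higher) and 1428 of all genes.

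Samples with the same number did not deviate together (r of -0.0822, -0.321 and -0.155), so the numbers name samples only. With the replicate block, limma called 0 members (0 lower, 0 higher; 14 at an unadjusted p under 0.05, beside 16% of all genes) and 102 of all genes. Leaving out 1 library gave 0 to 10 members called (0 to 8 lower, 0 to 2 higher), 127 to 1243 genes in all and a median of -0.38 to -0.30.

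Of 843 values for 57 genes under 15 settings, 712 kept direction and side of the threshold, 93 lost the call, 11 gained it and 27 changed sign, none of them called before or after; the cause was not tested. Quantile normalization gave -0.0032 for Dhx58, -0.07 for Oasl2, 0.01 for Ly6e and 0.02 for Ifnar1. Scaling outside Rn45s gave -0.02 for Oasl2. The division term gave 0.01 for Oas3, -0.07 for Oasl2 and 0.13 for Ly6e. With 1 library left out, log2 fold changes ran from -0.38 to 0.39 for Cmpk2, -0.49 to 0.40 for Dhx58, -0.52 to 0.08 for Eif2ak2, -0.46 to 0.13 for Ifit1, -0.13 to 0.47 for Ifitm3, -0.16 to 0.11 for Ifnar1, -0.12 to 0.03 for Ifnar2, -0.11 to 0.56 for Lgals3bp, -0.21 to 0.16 for Ly6e, -0.23 to 0.15 for Oas3 and -0.23 to 0.36 for Oasl2. Members under a mean of 4 rest on few reads, and wide intervals there do not show that a gene was alike in both groups.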
